A study of Homo sapiens with 6 samples.

Results

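The regions described here are 209 large clusters of H3K27ac peaks that were found in both cell lines of the series, 6T-CEM and Jurkat. In each peak list, peaks on chromosomes 1 to 22 and X that lay 12500 bp or less apart were joined, the overlapping joined spans of the 3 lists were merged, and a merged span was kept when peaks covered at least 8 kb of it in every list. This kept 209 of 17136 merged spans (1.22%), or 3.81% of the 5488 spans with a peak in every list. H3K27ac was profiled in 1 library of 6T-CEM and in 2 libraries of Jurkat, both established human lines of T-cell acute lymphoblastic leukaemia (T-ALL). The other 3 samples, IgG controls of the same lines, were not analysed here. GNE-987, an inhibitor of BET bromodomain proteins, is in the title of the series, and a treatment at 10 nM for 24 h is in its description. No sample label gives a treatment, so any library may come from treated or untreated cells. The description calls the assay CUT&Tag, in which a tethered transposase cuts DNA beside the marked histone, whereas the extraction protocol speaks of sonicated nuclei.

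H3K27ac is acetylation of lysine 27 of histone H3, a mark of active promoters and enhancers. Long runs of closely spaced acetylated enhancers, often called super-enhancers when ranked by signal, tend to lie at genes that define a cell's identity. In T cells such runs are known at genes of T-lineage transcription factors and of T-cell receptor signalling. The clusters here were selected on covered bases and not on read signal.

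The 6T-CEM list held 35154 peaks over 34.3 Mb, and the Jurkat lists held 16159 peaks over 16.2 Mb (replicate 1) and 32097 peaks over 27.6 Mb (replicate 2). Read counts were not part of these lists, and the depth behind them is unknown. All 9 T cell markers checked (the CD3 chains, CD2, CD5, CD7, LCK, CD247 and CD28) had a peak in the gene body in 6T-CEM and in Jurkat replicate 2, and 8 had one in Jurkat replicate 1. None of the 5 erythroid markers had one in any list. Of the 4 NK markers, 2 had a peak in 6T-CEM, against 0 and 2 in Jurkat replicates 1 and 2, of the 6 myeloid markers 2, against 1 and 2, and of the 6 non-blood markers 1, against 0 and 1. The number of B cell markers with a peak was 3 of 6 in 6T-CEM, and 2 and 3 of 6 in Jurkat replicates 1 and 2. The lines were not tested against each other, since the spread within 6T-CEM cannot be seen from 1 library. The ratio between the Jurkat replicates is given beside the line ratios of the clusters as a whole. Whether separate cultures gave the 2 Jurkat libraries is not stated in the labels, so their spread may be technical. The peak names of the replicate 2 list also carry a tag, NE, that those of replicate 1 lack and no label explains. Whether the 2 Jurkat libraries differ in treatment or preparation is therefore unknown, and the replicate 1 over replicate 2 ratio may hold more than replicate error.

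A few sequences from the clusters are given first, from RefSeq (GRCh38.p14). The mature forms of miR-142, a microRNA of blood cells, are shown because the hairpin of MIR142 lay under one of the longest stretches covered in all 3 lists. Capitals mark the seed, bases 2 to 8. The pair come from the 2 arms of 1 hairpin and have different seeds.
hsa-miR-142-5p: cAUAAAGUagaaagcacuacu
hsa-miR-142-3p: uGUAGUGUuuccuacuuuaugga

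The promoters of ETV6, ZAP70 and PRKCQ, from 250 bases before to 50 after the annotated start, are shown as examples. Each of these genes lay in a cluster whose highest-fold peaks overlapped in all 3 lists. Its start lay under a peak in every list, but not always under the highest-fold peak. MYH9 also met both conditions and is not shown. ETV6 encodes an ETS-family repressor, ZAP70 a kinase bound to the T-cell receptor, and PRKCQ the protein kinase C theta that acts below it. Capitals mark matches to the short motifs searched on both strands: CRE (TGACGT) in ETV6; ETS (AGGAAG), E-box (CAGCTG) and TCF/LEF (CTTTGAT) in ZAP70. The PRKCQ window held none of these and none of the others searched, which were RUNX (TGTGGT), a further ETS form (CCGGAAG), a further E-box (CAGATG), the site of GATA factors (AGATAA), forms of the MYB site (TAACGG, and also TAACTG) and AP-1 (TGANTCA). No motif lies within another.
ETV6 promoter (chr12:11649424-11649723, plus strand): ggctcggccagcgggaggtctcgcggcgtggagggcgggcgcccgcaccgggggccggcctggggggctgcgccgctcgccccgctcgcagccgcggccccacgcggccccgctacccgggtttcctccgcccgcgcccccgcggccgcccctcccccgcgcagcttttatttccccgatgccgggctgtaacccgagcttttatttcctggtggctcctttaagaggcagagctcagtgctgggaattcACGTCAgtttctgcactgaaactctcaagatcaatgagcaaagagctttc
ZAP70 promoter (chr2:97713326-97713625, plus strand): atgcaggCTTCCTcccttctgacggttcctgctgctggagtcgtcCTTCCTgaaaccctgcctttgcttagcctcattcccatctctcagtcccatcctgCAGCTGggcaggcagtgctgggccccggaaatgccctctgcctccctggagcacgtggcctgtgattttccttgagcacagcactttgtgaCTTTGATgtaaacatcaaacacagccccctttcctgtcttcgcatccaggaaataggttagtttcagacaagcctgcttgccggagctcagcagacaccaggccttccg
PRKCQ promoter (chr10:6580597-6580896, minus strand): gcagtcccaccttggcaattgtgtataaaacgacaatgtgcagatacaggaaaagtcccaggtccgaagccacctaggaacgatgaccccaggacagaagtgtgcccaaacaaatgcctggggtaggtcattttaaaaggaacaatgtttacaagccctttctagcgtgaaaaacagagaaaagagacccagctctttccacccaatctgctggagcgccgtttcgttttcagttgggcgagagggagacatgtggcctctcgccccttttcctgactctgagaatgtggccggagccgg

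The promoter windows differed in base composition as well as in motifs. The ETV6 window held 33 CpG sites at 69.0% GC, the ZAP70 window 7 at 56.0% and the PRKCQ window 11 at 51.3%. Peaks over the ETV6 start had a fold enrichment of 7.93 in 6T-CEM, against 5.73 and 4.91 in Jurkat replicates 1 and 2. The folds are the authors' own values from the peak caller and were not scaled between lists, so folds of different lists stand side by side as descriptions only. At ZAP70 the fold was 9.63 in 6T-CEM, against 5.13 and 7.04 in Jurkat. At PRKCQ it was 6.97 in 6T-CEM, against 6.92 and 4.01. Over the longest stretch covered in every list of each cluster, folds reached higher values in some or all lists. They were 8.62 in 6T-CEM, against 5.78 and 6.475 in Jurkat, for ETV6. For ZAP70 they were 9.63, against 8.85 and 7.04, and for PRKCQ 8.40, against 8.88 and 10.1. The ETV6 and ZAP70 windows were covered over all 300 bases in each library, and the PRKCQ window over 300 in 6T-CEM, against 268 and 288 in Jurkat.

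Size was what chose the clusters, so the sizes below are descriptive. The median span was 83.8 kb, from 20.9 to 406.9 kb, and together the clusters spanned 19.8 Mb. Covered bases per cluster had a median of 23.9 kb in 6T-CEM (8.65 to 154.3 kb), against 13.2 kb (8.01 to 89.8 kb) in Jurkat replicate 1 and 22.3 kb (8.30 to 121.9 kb) in Jurkat replicate 2. The clusters held 18.95% of all covered bases in 6T-CEM, against 21.98% and 22.19% in Jurkat. Jurkat replicate 1 had the shortest list and was the lowest list at 167 clusters, against 26 for 6T-CEM and 16 for Jurkat replicate 2. Of the merged spans with at least 8 kb in a given list, the shared clusters made up 24.0% of 870 in 6T-CEM, against 70.4% of 297 in Jurkat replicate 1 and 27.9% of 750 in Jurkat replicate 2.

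At the 8 kb limit, clusters just inside and just outside had nearly the same size. Just inside were PHF19, a Polycomb-associated gene, with 15851 bp in 6T-CEM against 8005 and 9317 bp in Jurkat, and SPNS3, UBE2M and DEF6, with 8006, 8018 and 8062 bp in their lowest list. Just outside were SMG6 (31108 bp in 6T-CEM, against 7922 and 21752 bp in Jurkat), FERMT3 with 7895 bp and TAPBPL with 7808 bp in their lowest list, and a span near HDAC4 with 7769 bp in 6T-CEM. FERMT3 encodes the blood-cell integrin activator kindlin-3.

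The cluster with the most covered bases in its lowest list lay over HDAC4, a class II histone deacetylase gene, at chromosome 2, 239181022 to 239407011 (hg38). Peaks covered 71193 bp of it in 6T-CEM, against 89776 and 121924 bp in Jurkat replicates 1 and 2, so the Jurkat libraries were both higher. It was also the largest span of both Jurkat lists, and among the shared clusters only it ranked 13 in 6T-CEM.

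ETV6 came next, a repressor gene often altered in leukaemia (chromosome 12, 11648587 to 11906326). It had 77188 bp in 6T-CEM, against 60250 and 58984 bp in Jurkat, and the Jurkat libraries differed from each other by less than either differed from 6T-CEM. RUNX1, which encodes a core transcription factor of blood and T-cell development (chromosome 21, 34885143 to 35051694), had 61458 bp in 6T-CEM, against 57180 and 37968 bp in Jurkat. The 6T-CEM value stood closer to replicate 1 than the Jurkat replicates stood to each other.

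The longest span of all lay over RPTOR, the scaffold of the mTORC1 growth kinase complex. It had 154313 bp in 6T-CEM, against 37655 and 112324 bp in Jurkat, with Jurkat replicate 1 far below the other libraries. Near the gene of the interferon-response factor IRF1, most of the cluster's bases lay over the long non-coding RNA CARINH, with 38503 bp in 6T-CEM, against 36887 and 38682 bp in Jurkat. The IRF1 gene itself held 4596 bp in 6T-CEM, against 843 and 5310 bp in Jurkat. The whole IRF1 cluster had 52694 bp in 6T-CEM, against 40625 and 51210 bp in Jurkat, with Jurkat replicate 1 the lowest.

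Of the other large clusters, that at ADA, the adenosine deaminase gene of purine salvage, had 41910 bp in 6T-CEM, against 33932 and 48561 bp in Jurkat. BCL2L1, the gene of the survival protein BCL-XL, had 28287 bp in 6T-CEM, against 28510 and 35613 bp in Jurkat, the least spread of the 15 as highest over lowest library. MSI2, an RNA-binding protein gene of blood progenitors, had 74907 bp in 6T-CEM, against 42792 and 95535 bp. GALNT2, an O-glycosylation enzyme gene, had 67610 bp in 6T-CEM, against 52227 and 87252 bp. In both the 6T-CEM value lay between the Jurkat replicates.

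The remaining 6 of the 15 were FAM53B (97393 bp in 6T-CEM, against 47596 and 92026 bp in Jurkat), CCDC88C (65179 bp, against 38794 and 54936 bp), GRAMD4 (76766 bp, against 35033 and 92599 bp), ZNRF1 (48835 bp, against 28860 and 45965 bp), the cluster of RAI1, SREBF1 and TOM1L2 (98426 bp, against 28493 and 96012 bp) and a span with no protein-coding gene on chromosome 20. CCDC88C encodes a Dishevelled-binding protein of WNT signalling, and ZNRF1 a ubiquitin ligase. SREBF1, a master regulator of fatty acid synthesis, held 16411 bp in its gene body in 6T-CEM, against 7548 and 15897 bp in Jurkat.

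**Figure D1:**
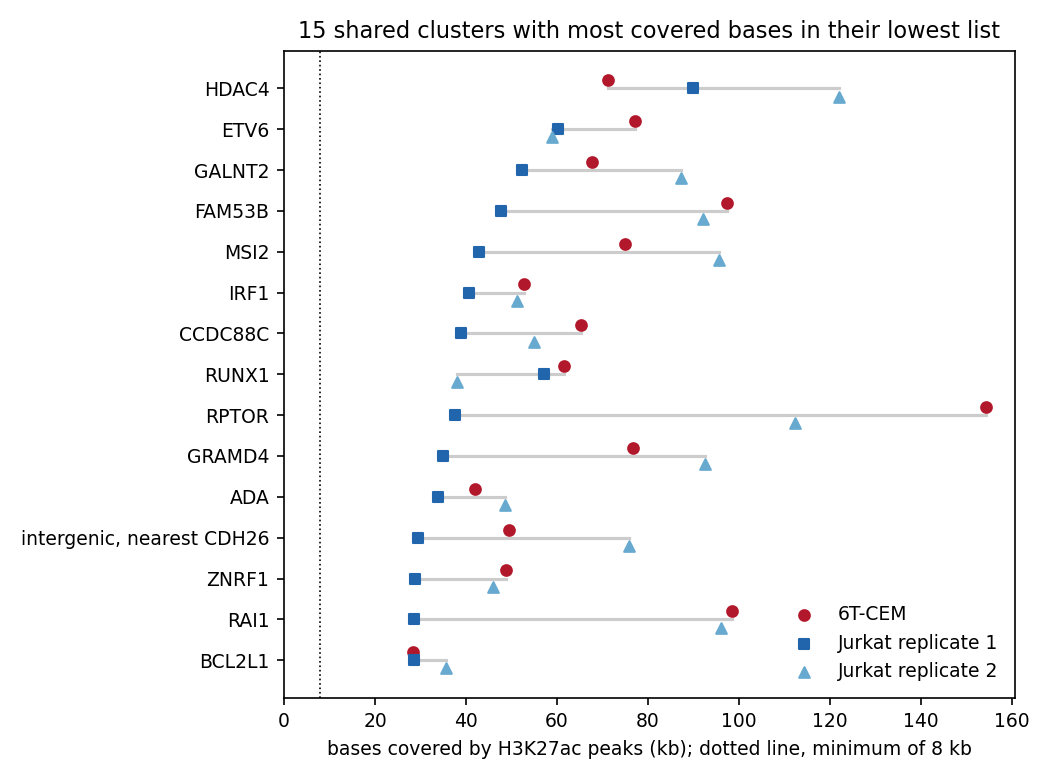
Bases covered by H3K27ac peaks (kb, horizontal axis) at the 15 shared clusters with most covered bases in their lowest list, with 1 point per library (6T-CEM above, Jurkat replicates 1 and 2 below it in each row). HDAC4 and ETV6 lead, and Jurkat replicate 1 is the lowest library at most of them, while RPTOR reaches 154.3 kb in 6T-CEM.

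The clusters overlapped 552 of 19970 protein-coding genes (2.76%), the background for the gene lists below. They overlapped 53 of the 319 distinct genes of the 18 lists used here (16.6%), a share that is a description, since the lists were chosen with earlier results known and the genes were not matched for length. Of 12 housekeeping genes none lay in a cluster, and 10 to 11 of them had a peak in the gene body in each library. With only 12 genes, none in a cluster cannot be told from the 2.76% of all genes.

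Among 39 T-lineage and T-ALL transcription factors, 10 lay in a cluster (25.6%). TCF7, a WNT-pathway factor that sets T-cell fate, had 70904 bp in 6T-CEM, against 11161 and 55402 bp in Jurkat. IKZF1, which encodes the lymphoid factor Ikaros, had 37118 bp in 6T-CEM, against 16862 and 20005 bp, so both Jurkat libraries lay below 6T-CEM. ETS1 had 23895 bp in 6T-CEM, between the 24758 and 20139 bp of Jurkat, while FLI1 had 21432 bp in 6T-CEM against 10420 and 11094 bp. Of the others, LYL1 lay in the cluster at IER2 and ZBTB7B in that at PBXIP1. Inside the LYL1 gene peaks covered 3826 bp in 6T-CEM, against 0 and 489 bp in Jurkat, and inside ZBTB7B 10380 bp in 6T-CEM, against 0 bp in both Jurkat lists. For these 2 genes the span, but not the gene body, had peaks in every list.

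Of 36 genes of T-cell receptor signalling and costimulation, 9 lay in a cluster. CD247, the zeta chain that carries the receptor's signal, had 35946 bp in 6T-CEM, against 15088 and 26751 bp in Jurkat. LCK, the kinase that phosphorylates it, had 17178 bp in 6T-CEM, against 10476 and 16254 bp, and ZAP70 had 12409 bp, against 9902 and 18905 bp. PTPN6, a phosphatase that restrains receptor signalling, was the most even of the 9, with 25606 bp in 6T-CEM and 21687 and 29059 bp in Jurkat. Further down the pathway, LCP2 (the adaptor SLP-76) had 29018 bp in 6T-CEM, against 10151 and 15108 bp, and PRKCQ had 33096 bp, against 15136 and 17930 bp. LCP2 and PRKCQ were higher in 6T-CEM than in both Jurkat libraries. GRAP2, GRB2 and PLCG1, adaptors and a phospholipase of the same pathway, made up the rest, with values between 9654 and 37876 bp.

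The cytoskeleton, adhesion and migration list had the largest share, 9 of 28 (32.1%). It included SEPTIN9 (98197 bp in 6T-CEM, against 28152 and 64887 bp in Jurkat), MYH9, non-muscle myosin heavy chain (45777 bp, against 28029 and 57512 bp), and RHOH, a blood-cell GTPase (48811 bp, against 28740 and 19524 bp). SELPLG, the selectin ligand, had 12756 bp in 6T-CEM, against 9441 and 13353 bp. Among cytokine and JAK-STAT genes 4 of 28 lay in a cluster (14.3%). The neighbours STAT5A, STAT3 and STAT5B shared 1 cluster (39809 bp in 6T-CEM, against 19738 and 27311 bp), and CISH lay in the cluster at MAPKAPK3 where peaks covered 446 bp of the gene in 6T-CEM, against none of it in Jurkat.

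The other lists had fewer genes in clusters. Those of lipid and sterol regulation (4 of 17, 23.5%) were SREBF1, SREBF2, FADS1 and FADS2, of which FADS1 and FADS2 shared 1 cluster. Chromatin regulators gave 5 of 34 (14.7%), among them GSE1 (83754 bp in 6T-CEM, against 19193 and 70583 bp) and HDAC7 (33683 bp, against 11068 and 26042 bp). HDAC1 lay at the edge of the LCK cluster, with 571 bp inside the gene in 6T-CEM and 886 and 1384 bp in Jurkat. Cell cycle and apoptosis gave 3 of 21 (14.3%), CCND3, CDK6 and BCL2L1, and mTOR, PI3K and AKT signalling 3 of 22 (13.6%), RPTOR, TSC1 and RPS6KB2. NOTCH pathway genes gave 2 of 18 (11.1%), DTX1 and ZMIZ1, while NF-kB, NFAT, AP-1 and early genes gave 2 of 23 (8.70%), JUNB and JUND. MHC and interferon genes gave 1 of 15 (6.67%), IRF1. The T cell marker list gave 2 of 9 (22.2%), LCK and CD247, and the B cell list 1 of 6 (16.7%), CD79A, beside ARHGEF1. The CD3 chains, CD2, CD5, CD7 and CD28 lay in no cluster. No myeloid, erythroid, NK or non-blood marker lay in a cluster, but these lists are too short to tell that from the share of all genes.

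**Figure D2:**
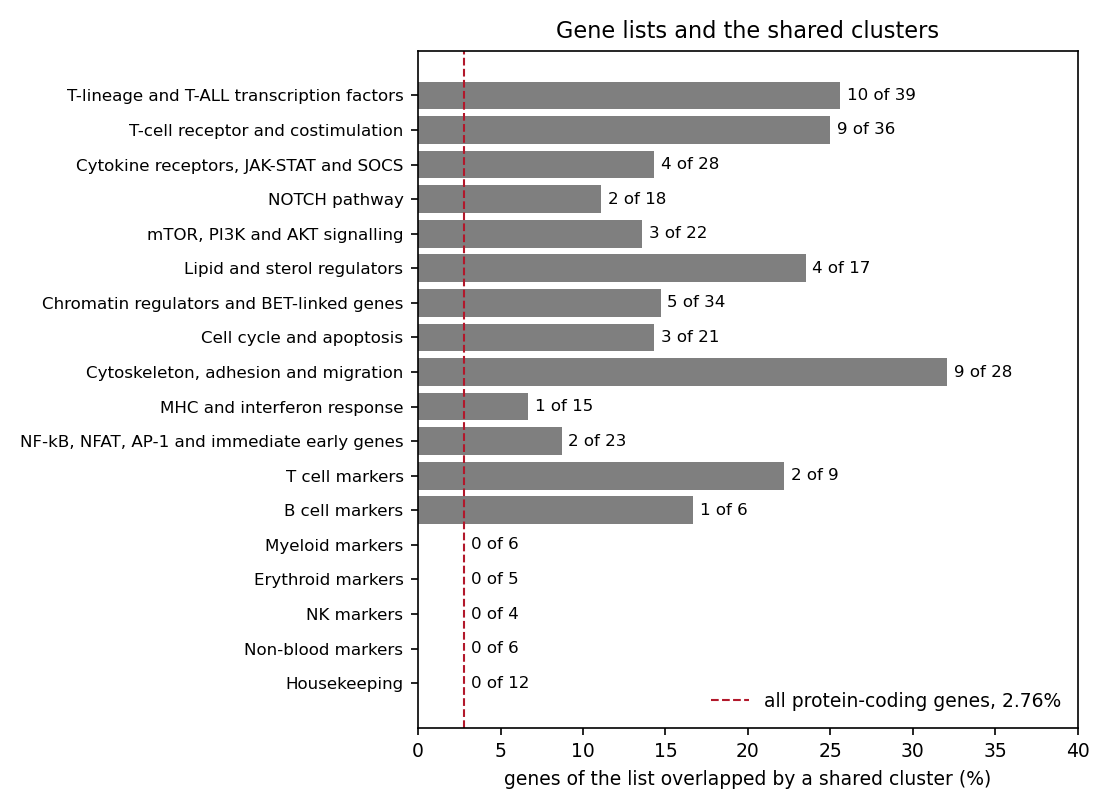
Share of each gene list (%, horizontal axis) that was overlapped by a shared cluster, with the count of genes at each bar and the share of all protein-coding genes as the dashed line. The longest bars belong to cytoskeleton, adhesion and migration (9 of 28) and T-lineage transcription factors (10 of 39), and the bars of housekeeping genes and of myeloid, erythroid, NK and non-blood markers are at 0. Those lists are short, so 0 cannot be told from the share of all genes.

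Inside the clusters the lists covered partly different bases. Of all bases covered by any list, 26.9% were covered by all 3, against 29.1% in the 4530 smaller spans with peaks in every list. By list, the share covered in every list was 36.3% of the 6T-CEM bases, against 66.1% of those of Jurkat replicate 1 and 38.4% of those of Jurkat replicate 2. By pairs, the covered bases shared were 54.4% of the union between 6T-CEM and Jurkat replicate 2, against 38.4% between the Jurkat replicates and 35.6% between 6T-CEM and Jurkat replicate 1. The share of the union is limited by the shorter list, that of Jurkat replicate 1. As a share of single lists, replicate 2 covered 68.5% of the 6T-CEM bases and 75.4% of those of replicate 1, while 6T-CEM covered 74.0% of the bases of replicate 1 and 72.6% of those of replicate 2. The clusters with the highest shares covered by all lists were ARHGEF2 (58.4%), PPP6R1 (56.2%), PTPN6 (55.9%), SELPLG (55.5%), DEF6 (55.2%) and CEBPE (52.5%). The share was lowest, 6.14%, at GNAQ, named here after its value was seen.

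The longest stretch covered in every list had a median of 2418 bp per cluster, from 472 to 10267 bp. In 153 of 208 clusters (73.6%) it lay more than 1 kb from any annotated start of a protein-coding gene. This was not measured in other spans, so the share is a description only. Of all bases covered in the clusters, only 7.24% lay within 1 kb of a start. The single cluster on chromosome 8 is left out of counts that use gene starts. The longest stretch, 10267 bp at chromosome 17, 42307151 to 42317417, lay over STAT5A and STAT3. The second, 9954 bp at chromosome 17, 58330441 to 58340394, lay outside protein-coding genes and held MIR142. It was covered by single peaks of 10119 bp in 6T-CEM, against 10236 and 9954 bp in Jurkat, and the fold was 9.72 in 6T-CEM, against 7.10 and 11.7. Next were stretches at FMNL1 (8623 bp), ADA (7919 bp), TNFRSF1A (7880 bp) and FRMD8 with the long non-coding RNA NEAT1 (7830 bp). These stretches were named after their lengths were seen.

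The highest-fold peak of a cluster was usually not at the same place in each list. In 35 of 209 clusters (16.7%) the highest-fold peaks of all 3 lists overlapped, against 2823 of 4530 smaller spans (62.3%). Smaller spans held a median of 1 peak in every list, whereas the clusters held 19 peaks in 6T-CEM and 11 and 22 in Jurkat, so a cluster offered more places for a highest peak. Among other large spans with peaks in every list, those of at least 8 kb in 6T-CEM alone had a share of 14.7%, in those of at least 8 kb in both Jurkat lists alone it was 4 of 32, and in other combinations 17.0%. By pairs the highest-fold peaks overlapped in 32.5% of clusters for 6T-CEM and Jurkat replicate 1, 31.6% for 6T-CEM and replicate 2 and 31.6% for the Jurkat replicates. In this measure the pairs of lines had shares as high as the pair of replicates of 1 line.

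These highest peaks also tended to lie away from gene starts. The highest-fold peak lay within 1 kb of a start in 44 of 208 clusters in 6T-CEM (21.2%). In Jurkat it did so in 55 (26.4%) and 45 (21.6%). In smaller spans it did so in 57.6% in 6T-CEM, against 64.5% and 58.2% in Jurkat. Spans large in 6T-CEM alone had 18.95% in 6T-CEM, against 38.39% and 16.79% in Jurkat. Those large in both Jurkat lists alone had 4 of 32 in 6T-CEM, against 17.95% and 10.26% in Jurkat. Other large spans had 18.88% in 6T-CEM, against 32.41% and 18.99% in Jurkat. A low share was thus not particular to the clusters. Of the bases covered in any list, 7.24% lay within 1 kb of a start in the clusters, against 38.0% in smaller spans. The share was 9.72% in spans large in 6T-CEM alone, 6.43% in those large in both Jurkat lists alone and 8.66% in other large spans. Gene bodies held 78.3% of covered bases in the clusters, against 71.0% in smaller spans. They held 71.5% in spans large in 6T-CEM alone, 54.7% in those large in both Jurkat lists alone and 77.5% in other large spans. The highest folds were not spread alike over the lists. Of the 1% of peaks with highest fold, 32.1% lay in the clusters in 6T-CEM, against 17.4% in Jurkat replicate 1 and 34.4% in replicate 2. The clusters held 13.9% of all 6T-CEM peaks, against 18.1% and 16.7%. In Jurkat replicate 1 the share of top peaks was near the share of all peaks.

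**Figure D3:**
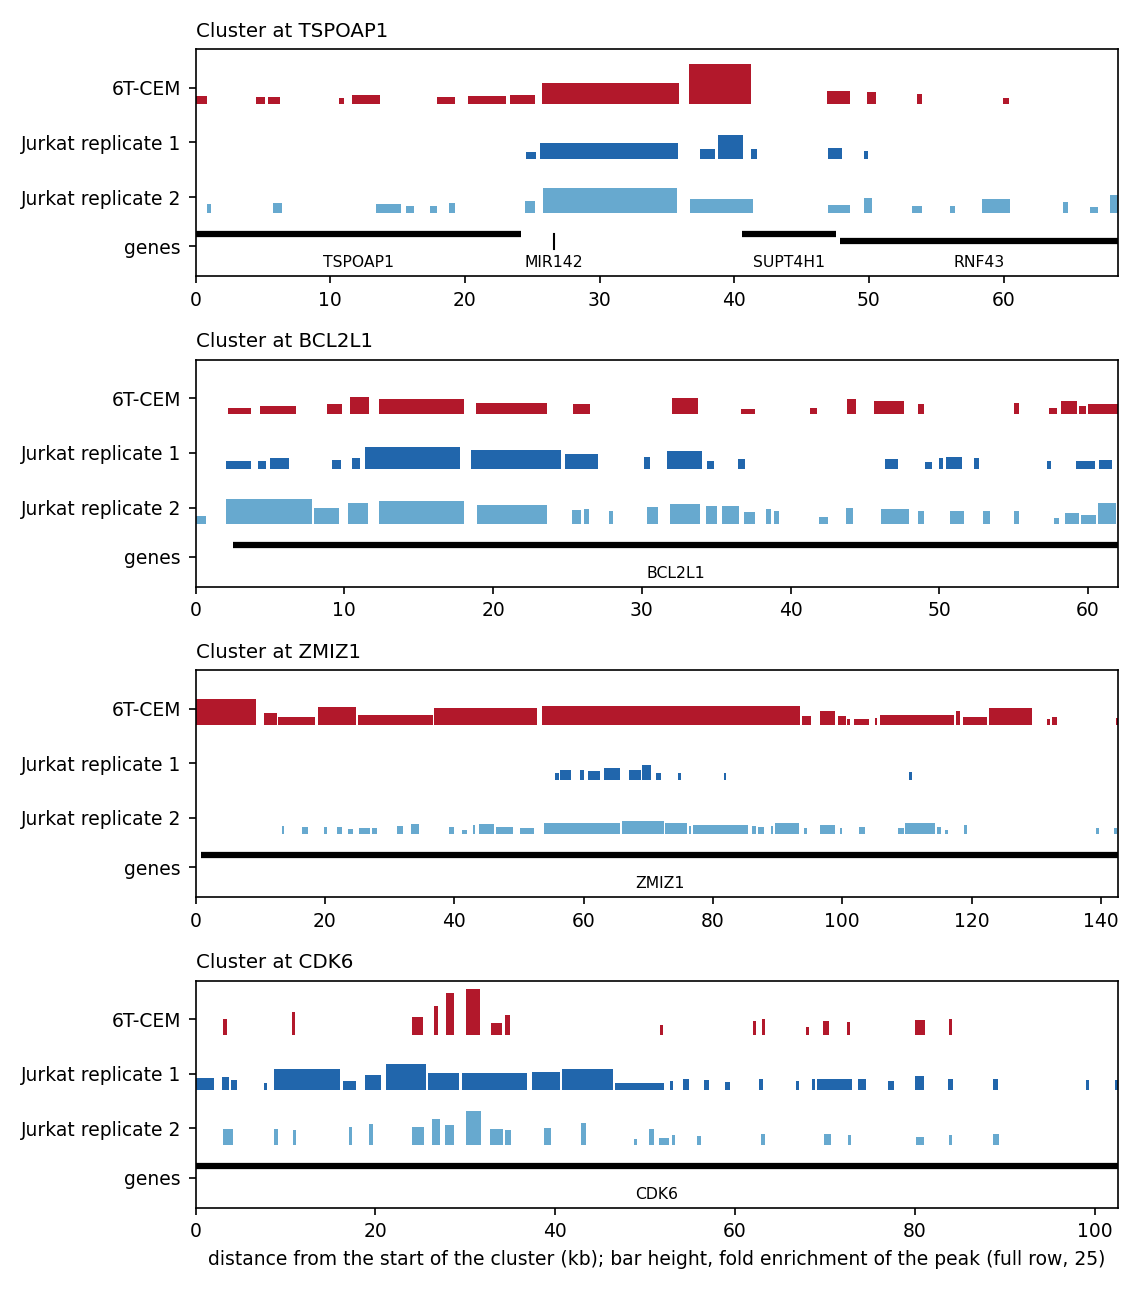
Peaks of each library (bars, with height the authors' fold enrichment) along 4 shared clusters, by distance from the cluster's start (kb), with genes as black lines and the MIR142 hairpin as a position mark. At TSPOAP1 the peak over MIR142 is about as wide in each library, at BCL2L1 peaks recur at like places, at ZMIZ1 peaks cover 122223 bp in 6T-CEM against 12806 and 65199 bp in Jurkat, and at CDK6 the widest run is that of Jurkat replicate 1.

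Of the clusters, 13 overlapped no protein-coding gene, 73 overlapped 1, 99 overlapped 2 to 5 and 24 overlapped more than 5. One of the 13 lay in the T-cell receptor beta locus (chromosome 7, 142779482 to 142813560) with 17616 bp in 6T-CEM, against 21416 and 18094 bp in Jurkat. It held the constant segments TRBC1, with 1448 bp covered in 6T-CEM against 1448 and 1345 bp, and TRBC2, with 1489 bp in 6T-CEM against 1191 and 1489 bp. Of the cluster's covered bases, 50.9% were covered in every list.

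Another lay at chromosome 14, 98155588 to 98240736, with BCL11B as the nearest protein-coding gene at 928550 bp. BCL11B encodes a factor needed for T-cell commitment, and the gene-poor interval beyond it is known to hold its distal enhancers in T cells. Peaks covered 39815 bp in 6T-CEM, against 35439 and 27194 bp in Jurkat, and the highest fold in the cluster was 30.1 in 6T-CEM, against 20.2 and 12.6. All 3 libraries were acetylated there over 27194 bp or more.

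Near CDH26 on chromosome 20 lay a pair of clusters. The larger, mostly over the long non-coding gene MIR646HG, had 49482 bp in 6T-CEM, against 29347 and 75706 bp in Jurkat. The smaller reached MIR646HG only at its end and had 11370 bp in 6T-CEM, against 9976 and 27998 bp in Jurkat. The long non-coding gene LINC02910 held 5688 bp of the smaller in 6T-CEM, against 4954 and 9219 bp in Jurkat. The larger is the chromosome 20 span among the 15 above. Others lay over LINC02815 (nearest gene RAB4A; 21071 bp in 6T-CEM, against 17778 and 20510 bp), near PSMG2 (20307 bp, against 15175 and 18716 bp), near PRR23E (16506 bp, against 12283 and 16182 bp), near STT3B (8897 bp, against 18970 and 9492 bp), near FBXW7 (21252 bp, against 9751 and 11158 bp) and over LINC00426 near UBE2L5 (16896 bp, against 8726 and 9084 bp). The remaining 3 lay on chromosome 6 and are given with the line ratios below.

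The clusters with most genes were mainly those of replication-dependent histones, genes expressed in S phase. The cluster at H3C4 held 19 genes, with 41065 bp in 6T-CEM against 18523 and 20340 bp in Jurkat. That at H4C15 held 16 genes with 34916 bp in 6T-CEM, against 26655 and 37695 bp, and that at H2BC15 held 9 genes with 19309 bp, against 10862 and 12378 bp. The cluster at LBHD1 held 12 genes of other kinds and was the most even of these, with 14683 bp in 6T-CEM against 14024 and 14149 bp. Histone genes are near-identical copies, and how reads were assigned among them is not stated.

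MicroRNAs were looked up in the same way, and those named were chosen after their values were seen. The clusters held 48 of the 1558 hairpins in the RefSeq table (3.08%), in 38 clusters. Of these hairpins, 12 lay under a peak in every list, against 53 (3.40%) of the whole table, and 12 lay under no peak. A higher share under a peak in every list was built in, since the rule asked for peaks in every list. The contrast with the whole table is therefore a description only. MIR142 was covered over its full 87 bp in each library. MIR342 and the pair MIR200C and MIR141 lay under a peak only in Jurkat replicate 2, and MIR33B, MIR148B and MIR324 lay under none.

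The clusters were shared by rule, but their sizes differed. Of the 1275 spans with at least 2 kb in every list, 16.9% had at least 1.5-fold more covered bases in 6T-CEM than in both Jurkat libraries, and 4.63% at least 1.5-fold fewer. Among the clusters these were 27 (12.9%) and 7 (3.35%). Between the Jurkat replicates, replicate 1 was at least 1.5-fold above replicate 2 at 10 clusters (4.78%, against 6.20% of the same spans), and replicate 2 above replicate 1 at 129 (61.7%, against 53.0%). The rule used these values, so the counts are descriptive. The median log2 ratio of covered bases was 0.36 for 6T-CEM over the Jurkat mean, 0.81 for 6T-CEM over Jurkat replicate 1 and 0.08 for 6T-CEM over replicate 2. For replicate 1 over replicate 2 it was -0.73, with an SD of 0.72 across clusters, against an SD of 0.55 for 6T-CEM over replicate 2 and 0.83 for 6T-CEM over replicate 1. The 1275 spans had medians near these, 0.31 for 6T-CEM over the Jurkat mean and -0.65 for replicate 1 over replicate 2. These ratios are thus not particular to the clusters. 6T-CEM was above both Jurkat libraries at 111 clusters, between them at 72 and below both at 26.

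The 6 with the highest ratio of those past 1.5-fold were led by SLIT1, a guidance-cue gene, with 67799 bp in 6T-CEM against 9138 and 25749 bp in Jurkat (log2 ratio 1.96). ZFP36L2, an mRNA-decay factor gene of lymphocytes, had 56176 bp in 6T-CEM, against 9771 and 24533 bp (1.71). GALNT6, an O-glycosylation enzyme gene, had 53089 bp in 6T-CEM, against 17523 and 15462 bp (1.69), and was the only one of the 6 with replicate 1 above replicate 2. ZMIZ1, a NOTCH1 cofactor gene, had 122223 bp in 6T-CEM, against 12806 and 65199 bp (1.65). A single 6T-CEM peak over ZMIZ1 was 39901 bp wide, and the widest in Jurkat were 2558 and 11776 bp. ITGAE had 65380 bp in 6T-CEM, against 13800 and 33279 bp (1.47), and PTPN3 had 31402 bp, against 8970 and 15643 bp (1.35).

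Of the 7 clusters at least 1.5-fold lower in 6T-CEM than in both Jurkat libraries, the lowest ratio was that of CDK6. CDK6, which encodes a G1 kinase, had 10378 bp in 6T-CEM, against 55638 and 17155 bp in Jurkat (log2 ratio -1.81). Here the gap between the Jurkat replicates was wider than that between 6T-CEM and replicate 2, with a log2 ratio of replicate 1 over replicate 2 of 1.70. That was the largest replicate difference of this direction. Its widest peak was 1602 bp in 6T-CEM, against 7373 and 1649 bp in Jurkat. PTP4A2, a phosphatase gene, had 8933 bp in 6T-CEM against 19262 and 17123 bp (-1.03), ELOVL5, a fatty acid elongase gene, had 14330 bp against 33604 and 22542 bp (-0.97), and RFX8 had 8777 bp against 16011 and 17538 bp (-0.93). The other 3 had no protein-coding gene: over the long non-coding CASC15 near PRL (12227 bp, against 38503 and 19719 bp, -1.25), and 2 near CD83 (16155 bp, against 24776 and 37081 bp, and 9361 bp, against 19986 and 15748 bp). Of the 7, 4 lay on chromosome 6, which held 11 of the 209 clusters. The largest replicate difference in the other direction was at PITPNM2, with 80694 bp in 6T-CEM and 13386 and 70717 bp in Jurkat (replicate 1 over 2, log2 ratio -2.40).

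**Figure D4:**
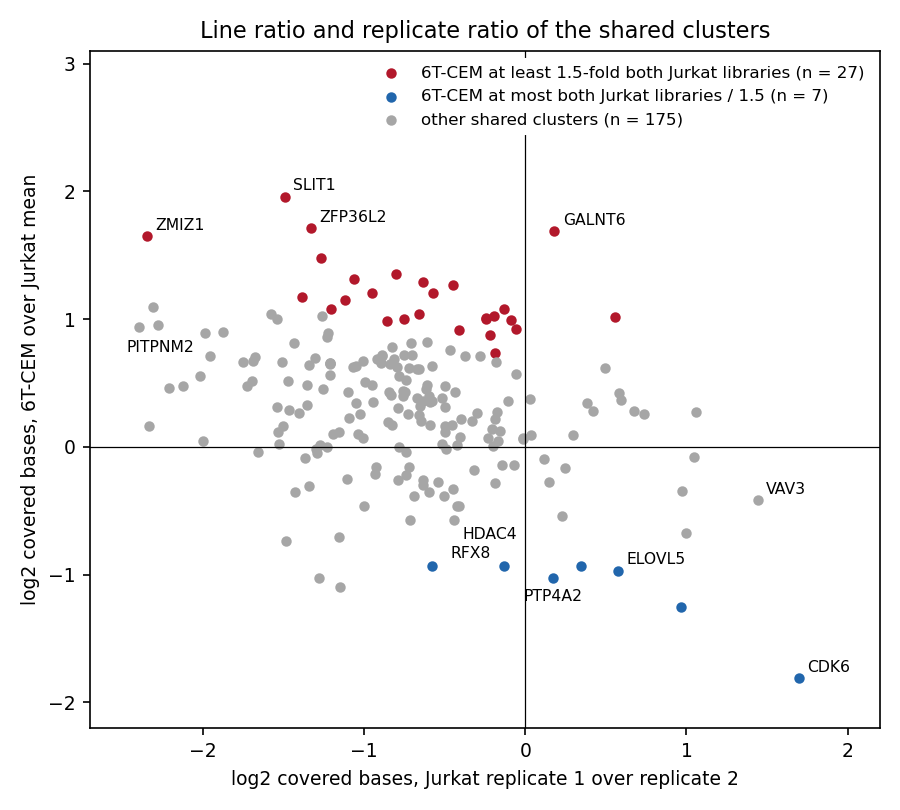
Log2 ratio of covered bases of 6T-CEM over the Jurkat mean (vertical axis) against that of Jurkat replicate 1 over replicate 2 (horizontal axis), with 1 point per shared cluster. The 27 clusters at least 1.5-fold higher and the 7 at least 1.5-fold lower in 6T-CEM than in both Jurkat libraries are coloured, and CDK6 is the extreme on both axes at the lower right.

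Across gene starts, 533 lay in the clusters, and 251 of them (47.1%) were covered in every list, against 2941 of all 22131 starts (13.3%). The clusters were chosen for peaks in every list, so a higher share there was built in by the rule. In the 300-base windows of those 251, TCF/LEF (CTTTGAT) matched in 9 (3.59%), against 15 of the starts covered outside the clusters (0.558%) and 1.99% of all starts. The 9 genes were ZAP70, PTPN6, SEPTIN9, HOOK2, CCL1, CNN2, PHF23 and the paired histone genes H2AC18 and H2AC19. ETS CCGGAAG matched in 17.5% of the covered starts in clusters, against 25.2% of those outside and 12.8% of all. E-box CAGCTG matched in 19.9%, against 13.7% outside and 18.0% of all. CRE matched in 11.2%, against 13.1% and 8.92%, and ETS AGGAAG in 37.1%, against 34.1% and 33.5%. RUNX matched in 11.2%, against 10.0% and 11.3%. E-box CAGATG matched in 10.4%, against 8.18% and 12.2%, GATA in 5.18%, against 3.05% and 7.88%, and AP-1 in 4.38%, against 4.13% and 6.15%. MYB TAACGG matched in 2.79%, against 6.47% and 3.40%, and TAACTG in 5.58%, against 5.39% and 7.15%. These shares were not tested. The median count of CpG sites was 24 in the cluster starts, against 27 outside and 21 over all starts. A match is a description of these letters only.

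By chromosome, the clusters were most frequent among spans shared by all lists on chromosomes 22 (12 clusters, 6.78% of shared spans), 17 (23, 6.00%) and 19 (19, 5.72%). They were least frequent on chromosomes 8 (1, 0.654%) and 15 (3, 1.29%).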

How the data were processed

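H3K27ac peak lists of 6T-CEM (1 library) and Jurkat (2 libraries) were analysed, and the 3 IgG samples were not. Bowtie2 2.2.5, MACS2 2.2.7 and build hg38 are named in the submitters' processing notes, without options. A use of IgG as the peak-calling control is not stated there. The lists were called per library. Each deposited peak has a score, a fold (the ratio of enrichment over background), a −log10 p-value and a −log10 q-value and a summit offset, all the authors' own values; the authors' −log10 q and fold were used to filter or rank peaks within a list, and folds of different lists were not scaled to each other. The lists hold no counts, so depth is unknown, nothing was scaled to it, and intervals cover counting error only.

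Chromosome Y and alternate or unplaced contigs were left out. Peaks 12500 bp or less apart were joined, merged and kept at 8 kb per list as described above. Clusters are called by the protein-coding gene with most covered bases, or by position and nearest gene. Named clusters were the 15 largest by lowest list, those nearest the 8 kb limit, the 6 highest and 6 lowest line ratios (all 7 that qualified are given), the 6 highest shares covered by all lists, those at listed genes, those with most or no genes, and the replicate extremes. Genes, starts, hairpins and promoters came from RefSeq tables (GRCh38.p14); starts of chromosome 8 were not used here. Members and gene lists were chosen with earlier results of these data known. No test was run between lines. Alternatives were other stitching distances, minimum sizes, −log10 q filters, equal list lengths, start windows, folds, overlaps and each library left out. The scripts were tested on simulated data, where 59 of 59 clusters were found and 0 kept by mistake. The simulated clusters had closely spaced peaks and lay far apart, so they hardly probed the joining limit. In the real lists, 283 spans of chromosome 21 were recounted base by base with 0 differences. Calculations used pandas 2.3.3, SciPy 1.17.1 and NumPy 2.4.6 under Python 3.11.15, and plots matplotlib 3.10.9.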

Additional observations from a re-analysis of the deposited data

How the results depend on the processing

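Of 56 alternative values, 35 stayed within the spread between replicates, the 95% exact interval or 1.5 times the count, and 21 moved further. For the share of bases covered by every list, that spread was an SD of 19.6 percentage points. It came from shares of each Jurkat list's own bases (66.1% and 38.4%), not of the union. By this wide limit 39.9%, without 6T-CEM, counted as unmoved from 26.9%. The spread for bases near gene starts was likewise that of single lists. For the median log2 line ratio the spread was an SD of 0.51, wider than the ratio of 0.36 itself. By this limit both 0.16 and 0.82 counted as unmoved, so the label says little about that ratio. The median log2 line ratio stayed above 0 in all of its alternatives. The number of shared clusters was 428 with a minimum of 5 kb and 111 with 12 kb, and with 1 library left out it ranged from 205 to 537, the highest without Jurkat replicate 1. Leaving out a library also leaves fewer lists to satisfy. The share at least 1.5-fold higher in 6T-CEM, 12.9% with all libraries, was 3.35% at a fold of 2 and 23.1% to 60.0% with 1 Jurkat library left out, the highest without replicate 2. The share at least 1.5-fold lower, 3.35%, was 0.0% at a fold of 2 and 5.85% to 9.87% with 1 Jurkat library left out. The share whose highest-fold peaks overlapped in every list, 16.7%, was 30.5% to 33.7% with 1 library left out, and the share of bases covered by every list, 26.9%, was 36.4% to 50.5%. Bases within 2.5 kb of a gene start made up 12.8%. The share of protein-coding genes overlapped was 5.34% at 5 kb, 1.53% at 12 kb, 1.74% with lists cut to equal length and 2.31% to 6.24% with 1 library left out, and the listed genes overlapped numbered 88, 30 and 50 to 92 (5 kb, 12 kb, 1 library left out). The cause of these shifts was not tested. The median log2 line ratio of 0.36 ranged from 0.16 without Jurkat replicate 1 to 0.82 without replicate 2, and was 0.19 with equal list length. No paired analysis was possible because 6T-CEM had 1 library and the lines shared fewer than 2 replicate numbers.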
